A study of Caenorhabditis elegans with 2 samples.

Results

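MicroRNA (miRNA) genes are described here as a group, by whether the CREB-family factor CRH-2 was found near their 5′ ends in L2 larvae of the nematode Caenorhabditis elegans. All 261 genes typed as miRNA in the WBcel235 annotation were taken, of 46890 genes on the 6 nuclear chromosomes. let-7, which that annotation lists under another name, was found by its WormBase identifier. A gene was called bound when a summit of the authors' replicated peak list lay in a window reaching 1000 bp upstream and 250 bp downstream of the 5′ end of the gene record. By this rule 43 miRNA genes were bound.

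The data are 2 biological replicates of chromatin immunoprecipitation with sequencing (ChIP-seq) on whole L2 larvae of mixed sex from strain OP425. All animals carried the integrated transgene wgIs425, a C-terminal GFP-FLAG fusion to crh-2 (C27D6.4), and the mutation unc-119(tm4063). No untagged, untreated or other-stage group was given, and the data therefore hold no contrast between conditions. No enrichment test was made. The animals' age is labelled unknown, and the peak lists hold no expression values against which tissue labels could be checked. The replicated list held 5735 peaks on ce11, with signals from 62.3 to 1625 and a median of 103. Signals are the authors' values and were used only within a list. Read depth is unknown. To set the replicates side by side, the strongest overlapping region of each was expressed in units of the median replicated peak as measured in the same replicate, which is called the relative signal.

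A miRNA is cut from a hairpin in a longer primary transcript, and its mature strand guides an Argonaute protein to messenger RNAs that match its seed, bases 2 to 8. Members of a family share all or most of the seed. In worms lin-4 and the let-7 family time larval transitions, and the mir-35 and mir-51 families act in embryonic development. Because hairpins are cut from longer transcripts, the annotated 5′ end of a miRNA gene is usually that of the hairpin and not a transcription start. Of the 261 genes, 7 had an annotated primary transcript, let-7 among them.

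The mature strands of the families on which the results turn are shown as RNA read from the RefSeq annotation of WBcel235, with the seed in capitals. RefSeq gave mature positions for 260 of the 261 genes. Every member of the mir-51 family was bound, and its members share the seed ACCCGUA:
mir-51: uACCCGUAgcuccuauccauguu
mir-52: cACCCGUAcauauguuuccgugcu
mir-53: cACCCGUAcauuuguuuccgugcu
mir-54: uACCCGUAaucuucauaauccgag
mir-55: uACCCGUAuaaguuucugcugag
mir-56: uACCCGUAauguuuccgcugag

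In the mir-58 family mir-58.1 and mir-80 were bound while mir-81 and mir-82 were not, and mir-58.1 differs from the other three in the last base of the seed:
mir-58.1: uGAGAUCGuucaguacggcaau
mir-80: uGAGAUCAuuaguugaaagccga
mir-81: uGAGAUCAucgugaaagcuagu
mir-82: uGAGAUCAucgugaaagccagu

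In the let-7 family mir-241 alone was bound, and lin-4 and mir-35 stand for families with no bound member:
let-7: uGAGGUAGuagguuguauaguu
mir-48: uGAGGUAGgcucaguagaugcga
mir-84: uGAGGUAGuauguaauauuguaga
mir-241: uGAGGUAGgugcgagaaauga
lin-4: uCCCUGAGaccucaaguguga
mir-35: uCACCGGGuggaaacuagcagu

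As a group, miRNA genes were bound about as often as protein-coding genes in this window. The 43 bound genes are 16.5% of 261 (Wilson 95% interval 12.5 to 21.5), against 17.8% of 19973 protein-coding genes taken by the same rule and 12.3% of all genes. With the 5′ end of any transcript the protein-coding share was 19.3%. Among other gene types the share was 43.3% for tRNA, 40.5% for snoRNA, 24% for snRNA, 19.1% for lincRNA and 14.1% for ncRNA genes, and 9% for antisense RNA, 3.37% for piRNA genes and 2.21% for pseudogenes. A share this close to the background is no result about miRNA genes as a class. Among the 2867 strongest peaks the shares were 10.7% for miRNA, 10.4% for protein-coding and 6.91% for all genes. These shares were not tested against each other, and all intervals cover counting error only.

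**Figure D1:**
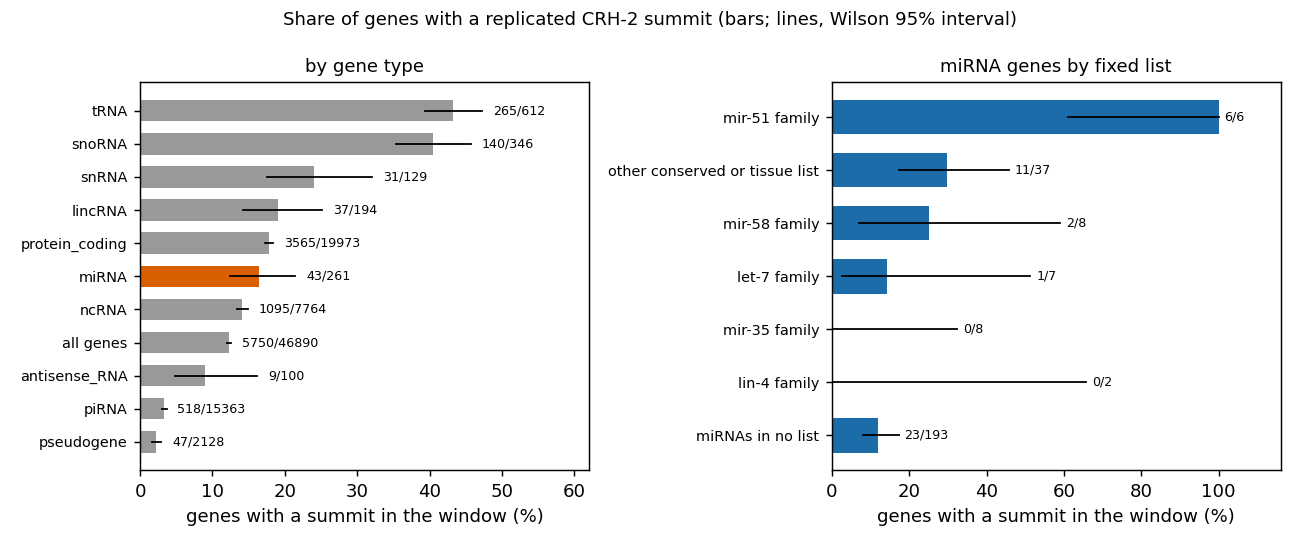
Share of genes with a replicated summit in the window, by gene type (left) and for the fixed lists of miRNA genes (right). Bars give the percentage, lines the Wilson 95% interval and labels the counts. The bar of miRNA genes (43 of 261) sits just under that of protein-coding genes, and the mir-51 family (6 of 6) stands above every other miRNA list shown. Counts are by gene, and in that family mir-54, mir-55 and mir-56 were bound through the same summit. Its interval treats them as separate.

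Neighbouring hairpins were also counted once. Joining genes on the same strand with gaps up to 10000 bp gave 209 units, of which 29 were clusters holding 81 genes and 180 were single genes. A bound gene was present in 35 units (16.7%, Wilson 95% interval 12.3 to 22.4), namely 9 of 29 clusters and 26 of 180 single genes. The 43 bound genes shared 39 strongest peaks. Every bound gene of the mir-80, mir-51 and mir-2 clusters had a peak of its own, whereas the mir-54 and mir-229 clusters each had 1 peak for 3 genes.

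In 39 of 43 bound genes (90.7%) the strongest summit was upstream of the 5′ end, and in 30 it was within 500 bp, with a median position of -288 bp. The window itself lies 80% upstream, and the share at bound protein-coding genes was 93.3% of 3565, so the 39 of 43 is no result about miRNA genes. The summits downstream were those of mir-34 at 131 bp, mir-8209 at 127 bp, mir-60 at 24 bp and mir-8207 at 10 bp. The median pooled signal was 135, and 28 of the 43 genes had a peak among the 2867 strongest. So did 2078 of the 3565 bound protein-coding genes and 3242 of all 5750 bound genes. Counts and median are by gene, take the strongest summit of each window and count a shared peak for each of its genes. They were not tested and are no result about miRNA genes.

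**Figure D2:**
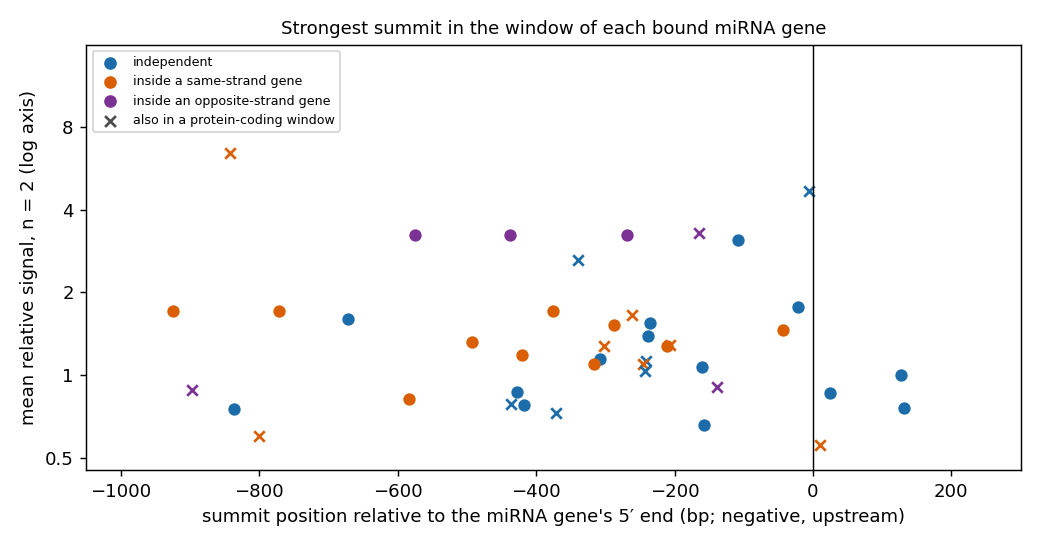
Position of the strongest summit relative to the 5′ end of each bound miRNA gene (x axis, bp) against its mean relative signal over 2 replicates (y axis, log scale). Colours give the location class, and crosses mark summits that also lay in a protein-coding window. In 39 of 43 genes the summit is left of the 5′ end, and the 2 highest points, mir-354 and mir-5549, are crosses.

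The mir-51 family, whose members act redundantly in embryonic development and pharynx attachment, was bound at all 3 of its loci. At mir-54, mir-55 and mir-56 (X 13144691 to 13145094, minus strand) a single peak lay 268 bp upstream of mir-54, the first hairpin. It had a signal of 345 and rank 243 of 5735. Its relative signal was 3.31 in replicate 1 and 3.16 in replicate 2, a mean of 3.23 ± 0.106 (SD, n = 2). Both replicates thus had it at more than 3 times the median peak. The 3 hairpins lie on the strand opposite to the gene F09A5.3, within its introns, and the summit lay in no protein-coding window.

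At mir-53 (IV 11027593 to 11027691, minus strand) the summit lay 108 bp upstream, with a signal of 333 and rank 265. The relative signal was 3.44 in replicate 1 and 2.76 in replicate 2 (3.10 ± 0.481, SD, n = 2). mir-51, the other gene of that cluster, had its own summit 837 bp upstream, between both hairpins, at a signal of 75.5 and rank 4483. There the replicates gave 0.72 and 0.79, below the median peak in each.

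mir-52 (IV 14034008 to 14034107, plus strand) stands alone on the same chromosome. Its stronger summit lay 22 bp upstream, with a signal of 171 and rank 1214, and a second one 787 bp upstream had a signal of 119. The relative signal of the stronger was 1.37 in replicate 1 and 2.17 in replicate 2 (1.77 ± 0.566, SD, n = 2), above the median peak in both replicates. All 6 genes stayed bound with the strongest 5735 regions of either replicate taken alone. With a window of 500 bp upstream and 100 bp downstream 4 of the 6 did, and mir-51 and mir-56 fell out.

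**Figure D3:**
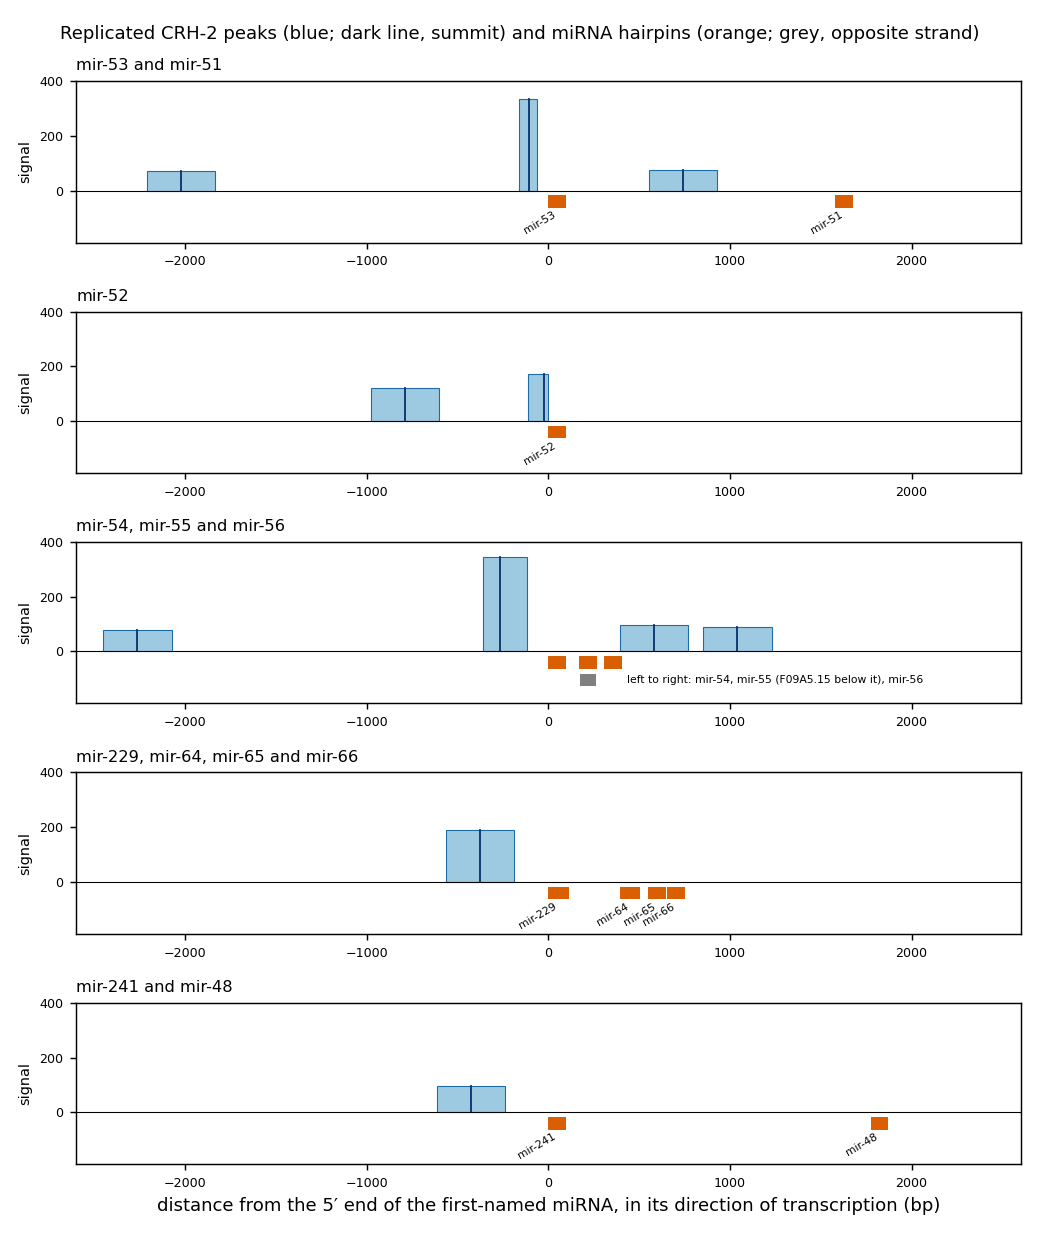
Replicated peaks (blue boxes, height = pooled signal, dark line = summit) around 5 miRNA loci, by distance from the 5′ end of the first-named gene in its direction of transcription (x axis, bp). Orange boxes are hairpins. The tallest peak at each locus lies upstream of the first hairpin, at 333 for mir-53 and 345 for mir-54, and none lies between the hairpins of mir-229 to mir-66.

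Smaller shares of the other families were bound. The mir-58 family, counterpart of Drosophila bantam and known for body growth, had 2 of 8 matched members bound. The strongest of 2 summits at mir-58.1 (IV 3233254 to 3233350, plus strand), in an intron of phkb-1, lay 493 bp upstream with relative signals of 1.19 and 1.45. mir-80 (III 8865270 to 8865367, minus strand) had a summit just upstream of its hairpin, with 1.71 in replicate 1 and 1.07 in replicate 2. At both genes the 2 replicates were above the median peak. mir-81 and mir-82 lie in the gene gid-2 on X, and the nearest summit was 1658 bp and 2624 bp downstream of their 5′ ends. mir-58.2 and the 3 genes of the mir-2209 group had their nearest summits 7736 to 8767 bp away, and mir-1834 was not matched by symbol.

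The let-7 family, which promotes later larval fates, had 1 of 7 members bound. mir-241, which acts with mir-48 and mir-84 in the passage from the second to the third larval stage, had a summit 427 bp upstream at a signal of 95.02 and rank 3234. Its relative signal was 1.02 in replicate 1 and 0.72 in replicate 2 (0.87 ± 0.217, SD, n = 2), around or below the median peak. mir-48 follows mir-241 on the same strand, and the same summit lies 2201 bp upstream of it, outside its window.

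The window of let-7 itself held no region even in the pooled list of 30000, which the authors label as peaks and background. It was placed at the start of its longest annotated primary transcript (X 14743590 to 14745321, minus strand). A peak with a signal of 321, rank 292, lay 1842 bp upstream of that start, at X 14747097 to 14747238. It had relative signals of 3.23 in replicate 1 and 2.70 in replicate 2 (2.96 ± 0.377, SD, n = 2), stronger than any peak in the windows of its family. The window of wshc-2, a protein-coding gene, held that summit too. let-7 counted as bound with a window of 2000 bp upstream and 500 bp downstream.

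mir-84 had its nearest summit 2269 bp upstream, at a signal of 181. Its own window held a pooled region of signal 57.1, rank 6359, below the weakest replicated peak. mir-795, mir-794 and mir-793, the remaining members, had their nearest replicated summits 18721, 19842 and 27360 bp away.

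Neither gene of the lin-4 family was bound. lin-4 (II 5902254 to 5902347, plus strand), which represses lin-14 and lies in an intron of F59G1.4, had a pooled region of signal 45.9 and rank 8237 in its window. The best region in that window ranked 5633 in replicate 1 and 10618 in replicate 2. lin-4 would thus count as bound by the 5735 strongest regions of replicate 1 but not of replicate 2. mir-237, its sister gene on X, had a summit 535 bp downstream of its 5′ end, outside the window.

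The mir-35 family, needed for embryonic viability, had 0 of 8 members bound. The cluster of mir-35 to mir-41 (II 11537608 to 11538404, plus strand) had its nearest summit 2584 bp upstream of mir-35, in the window of the protein-coding gene Y62F5A.12. Its own windows held only a pooled region of signal 19.9 at rank 23000 of 30000. mir-42, in a separate cluster, had a pooled region of 29.99 at rank 13646.

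Of 37 other conserved or tissue-known miRNAs, 11 were bound. They include 3 of the 4 genes of the mir-64 group, which share a seed and lie in 1 cluster, in an intron of gcn-1 on III, served by 1 peak 375 bp upstream of mir-229. That peak had a signal of 190 (1.72 ± 0.522 relative, SD, n = 2), with 2.09 in replicate 1 and 1.35 in replicate 2. mir-66, the last hairpin, lay 1031 bp from the same summit and so 31 bp beyond the window. A mature strand of mir-63 on X, which is not on this list, has the same seed, and mir-63 was not bound.

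mir-71, which is linked to adult lifespan, and mir-2 lie in an intron of ppfr-1 on I and had separate summits 288 and 420 bp upstream. mir-71 had relative signals of 1.42 and 1.63, and mir-2 had 0.96 and 1.40. The mir-71 peak was above the median peak in both replicates and the mir-2 peak in replicate 2 alone.

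mir-83, a member of the miR-29 family, had a summit 236 bp upstream with 1.25 in replicate 1 and 1.84 in replicate 2. mir-238 lay near mir-80 on III, with a summit of its own 160 bp upstream at 1.10 and 1.04. mir-79 on I had its summit 308 bp upstream, at 1.08 and 1.21. In each of these genes both replicates were above the median peak.

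The glial miRNA mir-228 had 0.77 in replicate 1 and 0.78 in replicate 2. mir-34, a miRNA of the DNA damage response, had 0.73 and 0.78, and mir-75 had 0.74 and 0.57. These 3 peaks were below the median peak in both replicates, and mir-75 was lost with replicate 2 alone.

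Several miRNAs with well-known tissue expression were not bound. lsy-6, active in a gustatory neuron, had its nearest summit 9960 bp away. mir-124, of ciliated sensory neurons and in an intron of trpa-1, had a pooled region of signal 57.5 at rank 6309. The muscle miRNA mir-1 had no pooled region in its window and a replicated summit of signal 206 lying 1097 bp downstream of its 5′ end. The intestinal pair mir-240 and mir-786 had their nearest replicated summits 24030 and 23901 bp away. The other unbound genes of this list were mir-43, mir-44, mir-45, mir-61, mir-62, mir-66, mir-70, mir-72, mir-73, mir-74, mir-85, mir-87, mir-233, mir-239.1, mir-239.2, mir-246, mir-247, mir-250, mir-251, mir-252 and mir-259. Of these, mir-239.1 and mir-239.2 shared a pooled region of signal 61.0, just under the weakest replicated peak, and both were bound with the strongest regions of either replicate.

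**Figure D4:**
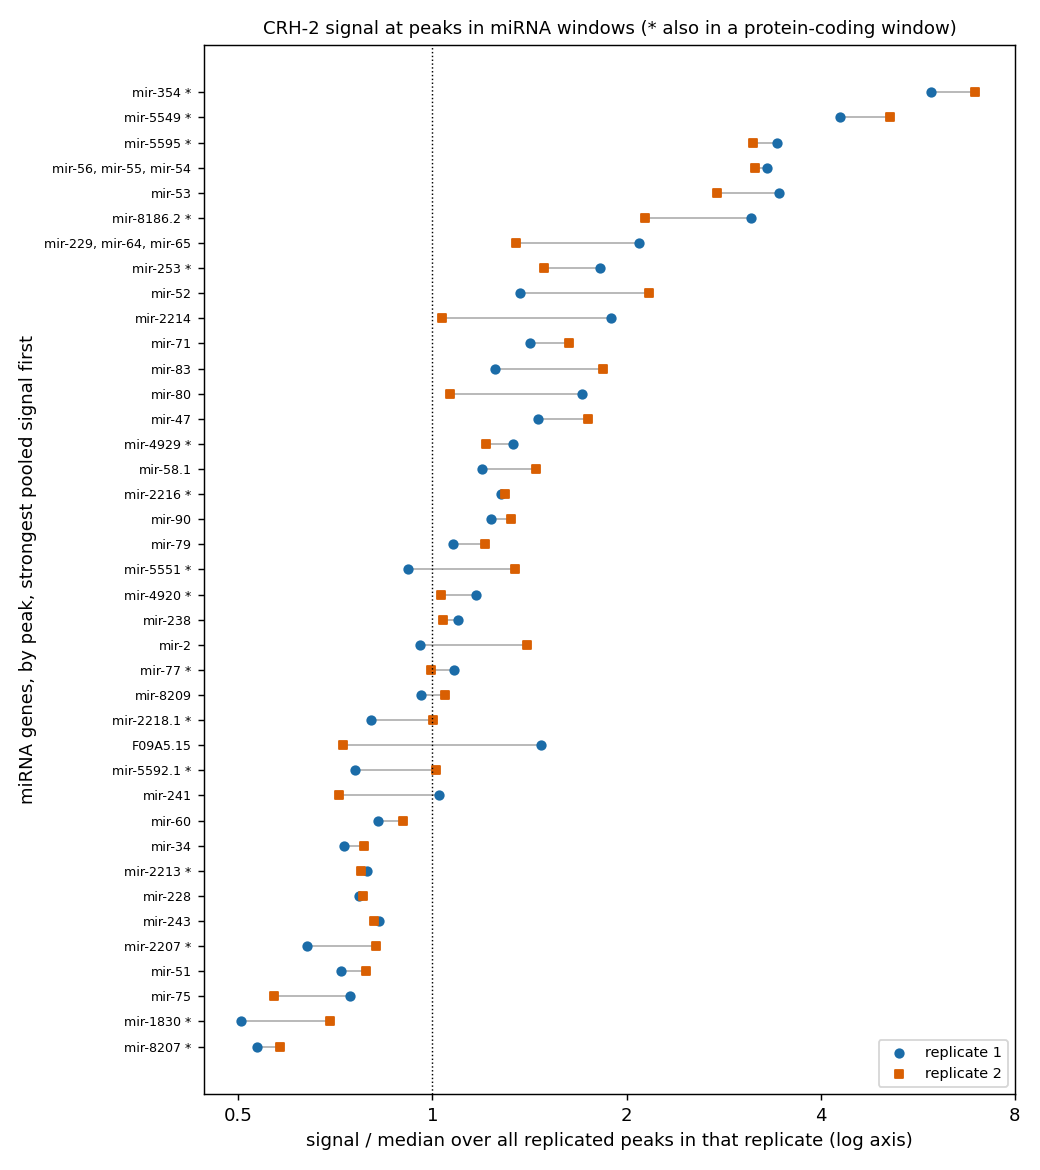
Relative signal of the 39 strongest peaks in windows of the 43 bound miRNA genes, in replicate 1 (circles) and replicate 2 (squares), on a log axis with the median of all replicated peaks as a dotted line. Peaks are in order of pooled signal, and an asterisk marks summits also in a protein-coding window. The mir-54 and mir-53 peaks are the strongest without an asterisk, at 3.23 and 3.10 on average.

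All bound genes of the fixed lists had a summit away from protein-coding promoters. Their strongest summit lay in no protein-coding window in 20 of 20 genes, against 7 of the 23 bound miRNA genes in no list. The lists held 68 genes, of which 20 were bound (29.4%, Wilson 95% interval 19.9 to 41.1), and 23 of the 193 others were (11.9%, 8.07 to 17.2). The lists and the miRNAs themselves were chosen with earlier results of these data known, so this is a description and was not tested. All these counts are by gene. Among the listed genes mir-54, mir-55 and mir-56 share a single peak, as do mir-229, mir-64 and mir-65. The intervals treat such genes as separate and are therefore too narrow. Counting only summits in no protein-coding window, 10.3% of miRNA genes and 4.97% of all 26917 genes that are not protein-coding were bound. The latter include 15363 piRNA genes and 2128 pseudogenes, the types with the lowest shares under the main rule. Shares of single gene types were not taken this way, so the 2 values show no excess at miRNA genes.

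The 7 unlisted genes with such a summit were mir-2214, mir-47, mir-90, mir-8209, F09A5.15, mir-60 and mir-243. mir-47 had relative signals of 1.46 and 1.74, and mir-90, an intronic neighbour of mir-80, had 1.23 and 1.33. mir-2214 had 1.90 in replicate 1 and 1.03 in replicate 2. F09A5.15, annotated as a miRNA on the strand opposite to mir-55, had 1.47 and 0.73, the widest split of the 39 peaks. mir-60, mir-243 and mir-8209 lay between 0.81 and 1.04 in both replicates.

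The strongest peaks in miRNA windows, down to that of mir-5595, were shared with protein-coding promoters. Next came the mir-54 and mir-53 peaks, at 345 and 333, which lay in no protein-coding window. mir-354, which overlaps an exon of the ribosomal protein gene rps-20, had a summit of signal 684 and rank 38 that lay in the windows of rps-20 and ekl-4. Its relative signal was 5.93 and 6.93. mir-5549 had a summit of signal 502, 5 bp upstream, that lay in the windows of eef-1A.1, a translation elongation factor gene, and rfc-4, a replication factor C subunit gene. mir-5595 in nurf-1, a chromatin remodelling gene, had 351, and mir-8186.2 had 284 in the window of gmeb-1. A summit in such windows does not tell which gene it serves.

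The other bound miRNA genes with a shared summit were mir-253, mir-4929, mir-2216, mir-5551, mir-4920, mir-77, mir-2218.1, mir-5592.1, mir-2213, mir-2207, mir-1830 and mir-8207, with mean relative signals from 0.56 at mir-8207 to 1.65 at mir-253. mir-1830, in the window of its host paic-1, and mir-8207, in that of its host magi-1, had the weakest peaks of all 43 genes, at signals of 63.8 and 63.4. These 2 names were chosen after their values were seen.

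The share bound was also taken by where the hairpin lies. Of 138 independent genes 20 were bound (14.5%, Wilson 95% interval 9.58 to 21.3), of 89 genes inside a gene on the same strand 17 (19.1%, 12.3 to 28.5) and of 34 inside a gene on the opposite strand 6 (17.6%, 8.35 to 33.5). The intervals overlap widely and no difference was tested. In the same-strand class 83 of 89 genes were intronic, 16 of them bound.

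For 7 of the 17 bound genes on the same strand as their host, the summit lay in the host's own promoter window, as at mir-354. For the other 10 it lay within the host or beyond its window, as at mir-71 and mir-2 in ppfr-1, mir-229 to mir-65 in gcn-1, mir-58.1 in phkb-1 and mir-90 in K01F9.2. The host had a summit in its own window in 13 of these 17 cases. Among all 74 same-strand pairs with a protein-coding host, which include these 17, the host did in 26. The 13 include the 7 genes above, where the same summit lies in both windows, so that a bound host follows by construction. Hosts of several hairpins, such as gcn-1 and ppfr-1, were counted separately for each hairpin. The counts therefore do not show that host and miRNA binding go together, and this was not tested.

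The replicates were close at these peaks, which come from a list selected for agreement between the replicates. At 38 of the 39 peaks the larger relative signal was at most 2 times the smaller, and their log2 ratio had an SD of 0.40 against 0.51 over all 5704 peaks measured in both. The bound genes had a median pooled signal of 135 against 103 over all replicated peaks, and peaks of like signal were not compared. The 135 is by gene, from the strongest summit of each window, while the 103 is by peak. Of the 43 bound genes, 40 were also bound with the 5735 strongest regions of each replicate taken alone. The exceptions were mir-75 and mir-8207 with replicate 2 alone, and mir-1830 and mir-8207 with replicate 1 alone. Because of that selection, and with no share over all replicated peaks beside them, 38 of 39 and 40 of 43 are no result about miRNA genes.

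Short sequences were searched within 50 bp of the 39 summits on both strands, and the shares over all 5735 replicated summits are given beside them. The CREB-type core TGACG was present at 6 summits (15.4% against 21.5%), TGACGTG, which contains it, at 2 (5.13% against 4.41%), and the palindrome TGACGTCA at 0 (against 1.29%). The E-box CACGTG was present at 5 (12.8% against 7.36%), the GATA-type TGATAA at 5 (12.8% against 18.7%) and GAGAGAGA at 2 (5.13% against 6.43%). These shares were not tested against each other.

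The E-box at mir-54 began at the summit base itself, and that at mir-58.1 lay 45 bp to the left of its summit on the plus strand. Both are shown with the matches in capitals, together with the CREB-type core at mir-241, which is on the minus strand, since these are the matches at summits of the mir-51, mir-58 and let-7 families. Among the other summits in no protein-coding window, that of mir-79 held CACGTG and TGATAA, those of mir-90, mir-8209 and F09A5.15 held TGACG, that of mir-83 held TGATAA and that of mir-228 held GAGAGAGA.
mir-54, chrX:13145350-13145379: cgatctctgcatCACGTGaagcggcccgtc
mir-58.1, chrIV:3232704-3232733: accaccttgataCACGTGgacaatcgatat
mir-241, chrV:14366710-14366738: aaagtgcatcccTGACGcgcgggagacgc

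A match is a description of the letters and not a site of binding. The mir-53 and mir-52 summits held none of the 6 sequences within 50 bp.

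Windows of 15 further miRNA genes missed a summit by 250 bp or less. The closest were mir-353 by 3 bp, mir-66 by 31 bp, mir-392 by 39 bp and mir-62 by 65 bp. The strongest such summit, of signal 351, lay 1244 bp upstream of mir-2221. The rest were mir-235, mir-236, mir-8190, mir-8205, mir-8211, mir-1824, mir-8186.1, mir-45, mir-269 and mir-239.1.

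The protein-coding genes that make and use miRNAs are given for context. Of 20 such genes 11 were bound by any transcript's 5′ end, against 19.3% of all protein-coding genes. They include the Argonaute genes alg-1 (1.00 ± 0.0396 relative, SD, n = 2), alg-2 and alg-5, the GW182 gene ain-1 (3.47 ± 0.373, SD, n = 2) and pash-1, the partner of Drosha (1.47 ± 0.265, SD, n = 2). The Drosha gene drsh-1 and the Dicer gene dcr-1 were not bound.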

How the data were processed

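The members, families and lists were chosen with earlier results of these data known. Per the deposited file lists, the authors' regions come from replicate 1, replicate 2 and their pool, each set against a control, and the replicated list passed the irreproducible discovery rate procedure. Not given in the sources used here are the caller and the aligner. Lists are in narrowPeak format. The signal of a region, the −log10 q-value (4.07 for every replicated peak) and the summit offset, another value, are as deposited. All 5735 replicated peaks were the 5735 strongest regions of the pooled list. Biological replicates are named only by number. Files on ce10 were not used here.

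Summits on ce11, the WBcel235 sequence, were matched to Ensembl release 115 and named by RefSeq through WormBase identifiers. Location class and clusters (gap up to 10000 bp) came from hairpin positions. Intervals are Wilson at 95%. The text names the 40 bound genes with the highest signal, the fixed families, and genes within 250 bp outside the window. The window assignment was tested on simulated data, where 200 of 200 planted genes were called and 0 others. Alternatives changed the window, strictness, replicates, gene assignment, clustering and motif span. Scripts ran with matplotlib 3.10.9, scipy 1.17.1 and numpy 2.4.6 under Python 3.11.15.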

Additional observations from a re-analysis of the deposited data

How the results depend on the processing

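The 43 bound genes, in 35 units, moved with the reach of the window and the strictness of the list, and the cause was not tested beyond the construction of each rule. Windows of 2000 bp upstream and 500 bp downstream gave 73 genes in 62 units, 40 of them independent, and 5000 bp upstream gave 101 genes in 78 units, with 50 independent, 35 same-strand and 16 opposite-strand. These are 28.0% and 38.7% of miRNA genes, and the protein-coding share rose as well, to 23.1% and 33.2%. With 500 bp upstream and 100 bp downstream 32 miRNA genes were bound, 12.3% against 14% of protein-coding genes. Which of both shares was larger thus changed with the window, and this was not tested. The 2867 strongest peaks gave 28 genes in 21 units, 11 of them independent. All pooled regions, which by their label include background, gave 123 genes in 99 units, with 68, 37 and 18 in the same order of classes. No share of other gene types was taken with that list, so the 123 are no result about miRNA genes. Summits in no protein-coding window gave 27 genes in 19 units, 10 of them same-strand and 3 opposite-strand. Taking single replicates gave 46 to 50 genes and 38 to 40 units, and 28 to 30 bound genes above the median peak against 25 in both replicates. Within 100 bp of the summits TGACG was present at 12 (30.8% against 33.0% of all summits), TGATAA at 11 (28.2% against 29.3%), GAGAGAGA at 6 (15.4% against 10.7%) and TGACGTCA at 1 (2.56% against 2.06%). The last 2 thus turned from below to above the share of all summits, and TGACGTG from above to below it (5.13% against 6.21%). CACGTG stayed at 5 summits (12.8% against 10.95%), a smaller gap than within 50 bp. In these settings the mir-51 family kept all 6 members, except for 4 with the 500 bp window and 5 among the 2867 strongest peaks. The lin-4 family gained lin-4 with replicate 1 alone and in the pooled list. The mir-35 family went from 0 bound members to 7 with 5000 bp upstream. All 8 had a pooled region in their windows, at rank 23000 or 13646 of 30000, below every replicated peak. The let-7 family went from 1 to 4 with 5000 bp upstream and with all pooled regions. It went to 2 with 2000 bp upstream and to 0 among the 2867 strongest peaks. No paired analysis was possible because there is 1 group. Depth is unknown, no control library was analysed here, and annotated hairpin ends need not be transcription starts.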

Other observations

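Grouping all mature strands by seed gave 46 seeds shared by 2 or more genes. Besides the mir-51 family, the pair mir-75 and mir-79, on X and I, was the only such group with every member bound. Groups of 4 or more with no bound member were mir-35, the 6 genes with the seed of mir-72, the 4 with the seed of mir-44 and the mir-2217 copies. By chromosome the share of miRNA genes bound is given beside that of protein-coding genes there, with no test. It was 33.3% on III (9 of 27) beside 25%, 20% on IV (10 of 50) beside 16.5%, 18.2% on I (6 of 33) beside 22.3%, 16.3% on II (8 of 49) beside 16.6%, 10.8% on X (8 of 74) beside 18.4% and 7.14% on V (2 of 28) beside 13%. The X cluster of 11 genes from mir-4807 to mir-4921 had none.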
